A study of Homo sapiens with 9 samples.

Results

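The genes described here are 45 genes of glycolysis and of the response to low oxygen, out of 26485 genes in the deposited tables. The rule lists them by name and uses no measured value, though the list was drawn up with earlier results of these data known: 17 glycolytic enzymes, 4 glucose and lactate transporters, 9 regulators of glycolytic flux, 5 subunits and prolyl hydroxylases of the hypoxia-inducible factor (HIF), and 10 HIF targets with no step in glycolysis. Each gene was read in mRNA of MDA-MB-231, a human cell line of triple-negative breast cancer. The cells stably expressed a nonspecific hairpin (NS shRNA, the control), ASAH1 shRNA #1 or ASAH1 shRNA #2, with 3 libraries per group. ASAH1 encodes acid ceramidase, the lysosomal enzyme that splits ceramide into sphingosine and a fatty acid, and the comparison of each ASAH1 hairpin with NS shRNA asks what changes when the enzyme is reduced. The sources used here state no number of clones or days of selection, and all 3 groups carried a hairpin vector, so untransduced cells are not part of any comparison. The study calls the 3 libraries of a group biological replicates without stating that they came from separate transductions, so p-values measure the spread between these libraries.

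Glycolysis turns glucose into pyruvate in a fixed chain of reactions, and many tumor cells pass the pyruvate on to lactate even with oxygen present. Hexokinase, phosphofructokinase and pyruvate kinase catalyse its irreversible steps, and each of these steps has several isozymes encoded by separate genes. HIF is a pair of an oxygen-labile alpha subunit (HIF1A or EPAS1) and ARNT. With oxygen, the prolyl hydroxylases EGLN1 and EGLN3 mark the alpha subunit for destruction, and without it HIF binds short DNA cores and raises transcription of most glycolytic enzymes and of genes for pH control, mitophagy and collagen maturation. TXNIP and ARRDC4 stand on the other side: they are arrestin-like proteins that reduce glucose uptake, and their genes follow glucose-derived metabolites through the factors MondoA and MLX.

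Reads on genes ranged from 30989598 to 34867548 per library with NS shRNA, from 23806003 to 39791698 with shRNA #1 and from 35653318 to 49659106 with shRNA #2. Values are normalized counts (reads divided by a size factor for each library), and the size factors were set separately in the table of each ASAH1 hairpin, so the same NS shRNA libraries read slightly higher in the table of shRNA #2. ASAH1 itself stood at 29.6% of NS shRNA with shRNA #1 and at 16.1% with shRNA #2. A gene is called higher or lower when its Benjamini-Hochberg adjusted p is below 0.05, from limma on log2(normalized count + 1) for a hairpin against NS shRNA, and from edgeR's quasi-likelihood test on reads for shRNA #2 against shRNA #1. By this rule 66.1% of the 14341 genes tested with shRNA #1 were called (32.8% higher, 33.3% lower) and 66.9% of the 14250 tested with shRNA #2 (33.5% higher, 33.4% lower), while 63.9% of 14381 differed between the hairpins (31.4% higher and 32.5% lower with shRNA #2). A call alone was therefore common in these cells, and the size of each change is given beside it. Both comparisons use the same 3 NS shRNA libraries. The markers VIM, CD44, KRT18 and AXL were high in every library (lowest normalized count 6527), while SPARC was low (36.7 to 89.4). ESR1 and PGR held at most 2 reads, PTPRC at most 8 and ADIPOQ 0, whereas ERBB2 (1955 to 3677) and EPCAM (684 to 1375) were measurable. PECAM1 (42.1 to 108), COL1A1 (554 to 859) and ACTA2 (897 to 2771), markers of endothelium and fibroblasts, were also read. Of these markers, VIM (log2 fold changes -0.27 with shRNA #1 and -0.67 with shRNA #2), ERBB2 (-0.69 and -0.42) and PECAM1 (-0.59 and -0.91) were lower with both hairpins, and AXL (0.38 and 0.24) and EPCAM (0.21 and 0.57) higher with both. KRT18 and ACTA2 were lower with shRNA #1 (-0.78 and -0.75) and did not pass with shRNA #2, and CD44, SPARC and COL1A1 passed with neither. The part of these markers in the results was not tested. In bulk RNA, fewer cells of a kind and less RNA per cell cannot be told apart.

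All 45 genes passed the filter on low values in every comparison. With shRNA #1, 35 of the 45 were called lower and 4 higher, with a median log2 fold change of -0.59 beside 0.0013 over all genes tested. These are 77.8% and 8.89% of the 45, beside 33.3% and 32.8% of all genes tested. With shRNA #2 the counts were 24 lower and 10 higher (53.3% and 22.2%, beside 33.4% and 33.5% of all genes tested), with a median of -0.20 beside 0.013. A direct comparison of the hairpins gave 29 of the 45 genes higher with shRNA #2, 5 lower and a median log2 ratio of 0.38 beside -0.0046 over all genes. That is 64.4% higher and 11.1% lower, beside 31.4% and 32.5% of all genes tested. Changes of at least 2-fold were held by 11 genes that fell and 3 that rose with shRNA #1, where 5.33% and 6.75% of all tested genes changed that far in those directions. With shRNA #2, 2 genes fell and 2 rose by 2-fold or more, beside 8.34% and 5.6% of all tested genes.

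**Figure D1:**
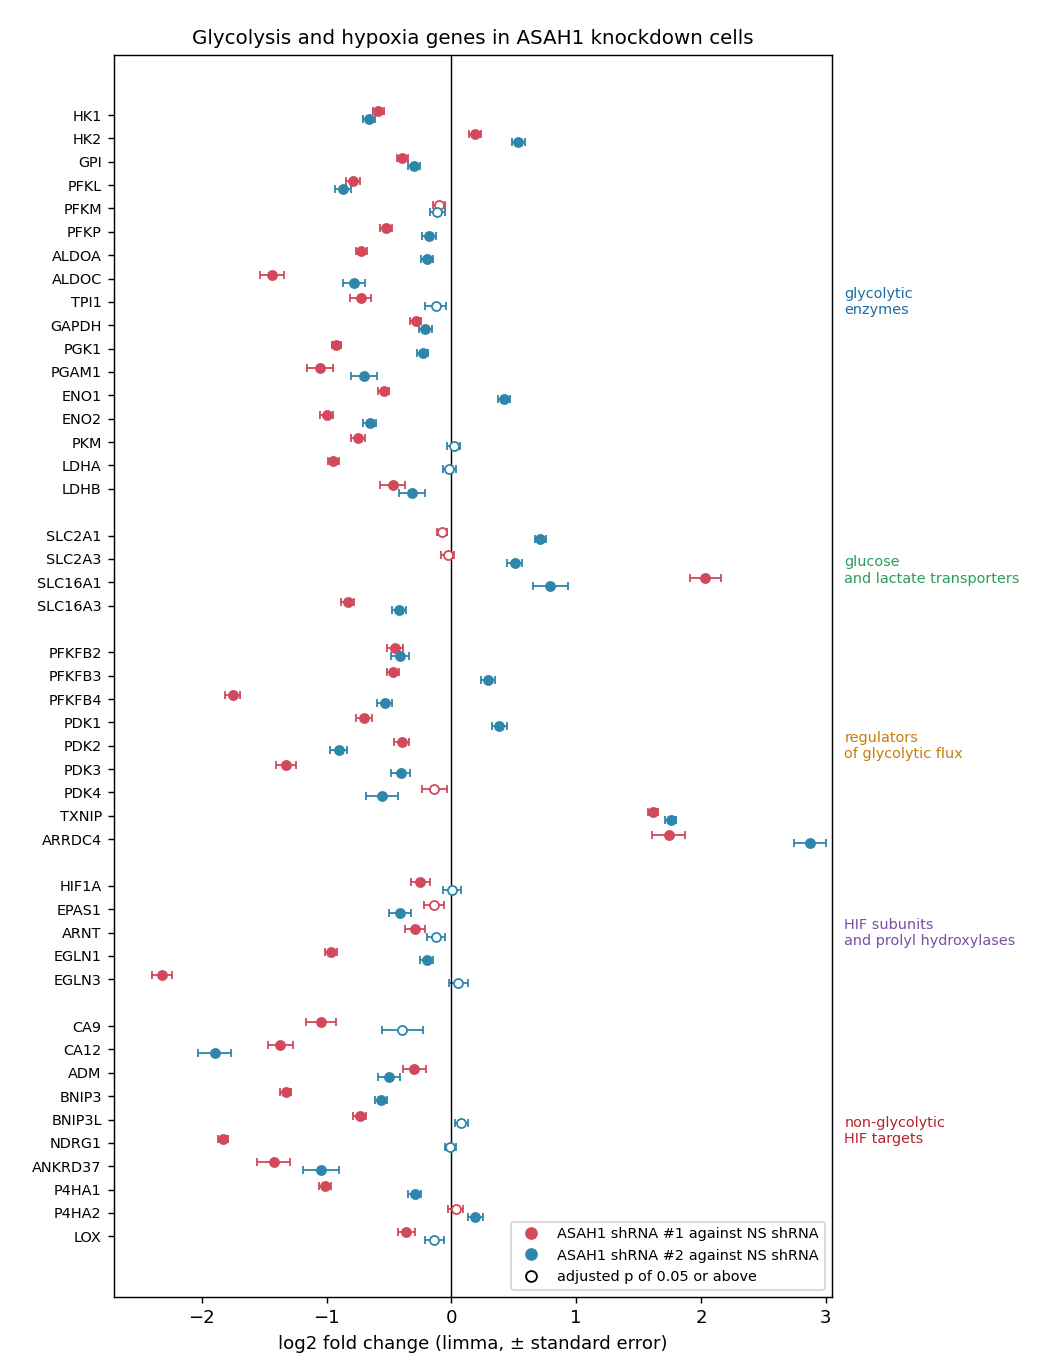
Each of the 45 genes is a row, grouped by role, and the horizontal axis is the log2 fold change against NS shRNA from limma with its standard error (red, shRNA #1; blue, shRNA #2; open symbols, adjusted p of 0.05 or above). Filled red points, which passed the test, lie left of 0 for 15 of the 17 glycolytic enzymes and 9 of the 10 non-glycolytic HIF targets, and EGLN3 is the farthest left at -2.32. With shRNA #1, 33.3% of all tested genes were called lower.

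In NS shRNA cells enzymes of the later steps of glycolysis were the most abundant mRNAs of the group. Per kilobase of all annotated exons, ENO1 (enolase) stood at 26355 ± 646 (SD, n = 3) normalized counts and GAPDH at 25313 ± 900. LDHA (12976 ± 560), PKM (12166 ± 445) and ALDOA (10346 ± 272) followed, then LDHB (7445 ± 901) and PGK1 (7440 ± 35.6), and TPI1 at 6732 ± 632. Which neighbours overlapped between libraries depended on the length used. The libraries of ENO1 and GAPDH overlapped per kilobase of all exons, as did those of LDHB and PGK1. Per kilobase of the longest transcript, ENO1 (53951 ± 1322) stood above GAPDH without overlap (35262 ± 1253), which then lay beside LDHA (34892 ± 1507) and PKM (34579 ± 1265), and LDHB (14440.0 ± 1748) likewise stood above TPI1 (10310 ± 968) and PGK1 (8406 ± 40.2). HIF1A, the next gene over all exons, stood at 4031 ± 398. At the other end were PDK4 (34.7 ± 1.07) and ARRDC4 (31.3 ± 5.90), whose libraries overlapped over all exons but not over the longest transcript (43.8 ± 1.35 and 31.3 ± 5.90), and SLC16A1 was last with either length, at 10.9 ± 0.992 over all exons. Genes near the bottom thus rest on far fewer reads than the enzymes at the top.

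**Figure D2:**
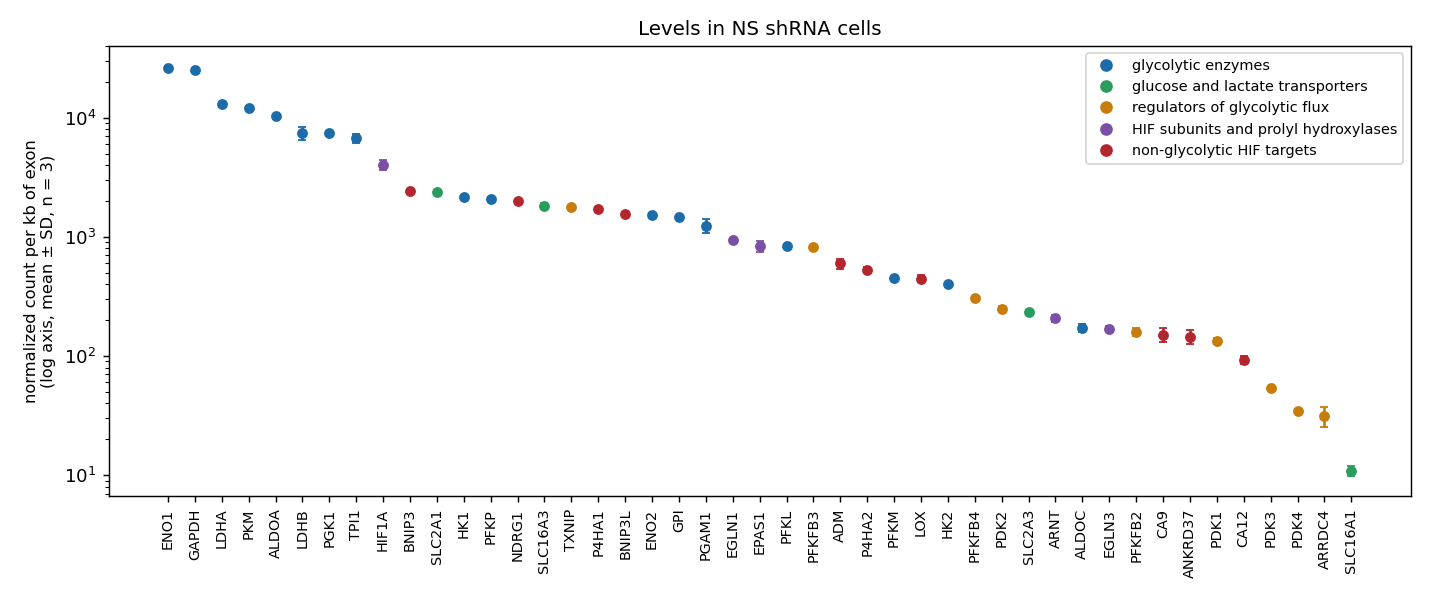
Normalized counts per kilobase of exon in the NS shRNA libraries (log axis, mean and SD of 3 libraries) are ordered from the highest to the lowest of the 45 genes and coloured by role. ENO1 at 26355 and GAPDH at 25313 lead, and SLC16A1 is last at 10.9.

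With shRNA #1 most glycolytic enzymes fell: 15 of 17 were called lower, HK2 was called higher and PFKM did not pass, with a median log2 fold change of -0.72. That is 88.2% lower and 5.88% higher, beside 33.3% and 32.8% of all tested genes. With shRNA #2, 11 of the 17 were lower and HK2 and ENO1 higher, with a median of -0.21, and PFKM, TPI1, PKM and LDHA did not pass. Here 64.7% were lower and 11.8% higher, beside 33.4% and 33.5% of all tested genes. All 17 enzymes together took 1.71% to 1.82% of the reads on genes with NS shRNA. They took 1.12% to 1.19% with shRNA #1 and 1.60% to 1.65% with shRNA #2, so the ranges of the 3 groups did not overlap. Such a share also depends on the reads of all other genes. When scaled together, NS shRNA replicate 1 had 30989598 reads at a size factor of 0.886, and shRNA #2 replicate 1 had 35653318 at 0.927. Beside NS shRNA, shares with shRNA #2 therefore read lower than normalized counts do, here and for the lists below. The lower share of the enzymes with shRNA #2 is thus not a fall of their summed normalized counts. In those counts ENO1, the most abundant, went from a mean of 148593 with NS shRNA to 199374 with shRNA #2, while 11 enzymes were called lower.

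The entry steps differed by isozyme. HK2, the inducible hexokinase bound to mitochondria, had normalized counts of 2370.5, 2412 and 2398 with NS shRNA and 2638, 2809 and 2740.4 with shRNA #1. In the table of shRNA #2 it had 2558, 2618 and 2585 with NS shRNA and 3867, 3735 and 3657 with shRNA #2. HK2 was above every NS shRNA library in every library of both hairpins, with log2 fold changes of 0.19 (SE 0.048, adjusted p = 0.00601) and 0.54 (SE 0.053, adjusted p = 8.38e-06). HK1, the housekeeping hexokinase, was lower with both (log2 fold changes -0.59 and -0.66), and so was GPI, the isomerase of the next step (-0.39 and -0.30). Among the phosphofructokinases, PFKP (the platelet form, the most abundant of the 3 per kilobase) had 16823, 16276 and 15435 with NS shRNA and 10744, 11389 and 11571 with shRNA #1. Against shRNA #2 it had 18152, 17668 and 16642 with NS shRNA and 15866, 14814 and 15703 with shRNA #2. The PFKP groups did not overlap in either table, but the fall with shRNA #2 was small, at -0.18 (SE 0.054, adjusted p = 0.0138), against -0.53 (SE 0.050, adjusted p = 1.26e-05) with shRNA #1. It no longer passed without NS shRNA replicate 2 (adjusted p = 0.0549). PFKL, the liver form, was lower with both hairpins (-0.79 and -0.87), and PFKM, the muscle form, passed in neither (-0.099, adjusted p = 0.102, and -0.11, adjusted p = 0.112), but was called lower with shRNA #2 under upper quartile rescaling (-0.20, adjusted p = 0.0109).

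The largest fall among the enzymes was that of ALDOC, the aldolase isozyme of brain (chromosome 17 from 28573115 to 28576948 in hg38). Its normalized counts were 488, 439 and 420.1 with NS shRNA and 163, 177 and 155 with shRNA #1. In the other table they were 526, 476 and 453 with NS shRNA and 291, 286 and 268 with shRNA #2. Both hairpins lay below NS shRNA without overlap, at 36.7% and 58.1% of it, with log2 fold changes of -1.44 (SE 0.095, adjusted p = 1.32e-06) and -0.78 (SE 0.091, adjusted p = 2.78e-05). The abundant isozyme ALDOA fell less (-0.72 and -0.20). The 250 bases before the ALDOC start site are shown because HIF cores are a well known control element of this pathway (RefSeq, GRCh38.p14, chr17:28576896-28577145, minus strand). Capitals mark the HIF core ACGTG or GCGTG on either strand and the E-box CACGTG, which holds an ACGTG on both strands and so counts as 2 cores.
ALDOC: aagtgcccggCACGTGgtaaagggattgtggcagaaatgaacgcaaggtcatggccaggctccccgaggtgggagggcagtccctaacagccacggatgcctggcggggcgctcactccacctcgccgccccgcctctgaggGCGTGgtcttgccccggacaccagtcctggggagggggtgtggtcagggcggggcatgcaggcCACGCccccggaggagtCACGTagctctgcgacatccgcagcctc
This window holds 3 ACGTG and 2 GCGTG, and a pair of the ACGTG form the E-box that begins 240 bases before the start.

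PGAM1, the phosphoglycerate mutase (chromosome 10 from 97426191 to 97433444 in hg38), was the other enzyme called with at least a 2-fold fall. It had 3467, 3332 and 2661 with NS shRNA and 1361, 1514 and 1676 with shRNA #1. With shRNA #2 the values were 3741, 3617 and 2869 with NS shRNA and 2100.4, 1889 and 2282 with shRNA #2. The libraries of both hairpins lay below all NS shRNA libraries, with log2 fold changes of -1.05 (SE 0.11, adjusted p = 2.00e-05) and -0.70 (SE 0.10, adjusted p = 0.000149). PGK1, which makes the first ATP of the pathway, fell to 52.8% with shRNA #1 (log2 fold change -0.92) but only to 85.3% with shRNA #2 (-0.23), and ENO2, the neuronal enolase, to 50.1% and 63.5%. GAPDH, often used as a reference gene, had 63059, 58904 and 59987 with NS shRNA and 49473, 49042 and 50818 with shRNA #1. Next to shRNA #2 it had 68044, 63941 and 64678 with NS shRNA and 55692, 58982 and 55560.1 with shRNA #2. GAPDH was lower in all libraries of both hairpins, by the smallest amount among the enzymes called lower with shRNA #1, with log2 fold changes of -0.28 (SE 0.043, adjusted p = 0.000307) and -0.21 (SE 0.051, adjusted p = 0.00418).

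LDHA, which reduces pyruvate to lactate, had 82091, 76331 and 76158 with NS shRNA and 40347, 40253 and 41115 with shRNA #1. In the table of shRNA #2 its values were 88580.2, 82858 and 82113 with NS shRNA and 81435, 83101 and 86309 with shRNA #2. LDHA was far below NS shRNA in every library of shRNA #1 (-0.95, SE 0.045, adjusted p = 1.84e-07) and overlapped NS shRNA with shRNA #2 (log2 fold change -0.015, SE 0.052, adjusted p = 0.812). PKM, the pyruvate kinase, gave -0.75 for shRNA #1 but 0.018 for shRNA #2, adjusted p = 0.792, and TPI1, triose phosphate isomerase, -0.73 and -0.13 (adjusted p = 0.214). TPI1 passed as lower with shRNA #2 without NS shRNA replicate 3 (-0.21, adjusted p = 0.0285) or without shRNA #2 replicate 3 (-0.20, adjusted p = 0.0455). LDHB, the form that favours the return of lactate to pyruvate, was called lower with both (-0.47 and -0.32, adjusted p = 0.0175 for the latter). The LDHB groups of shRNA #2 and NS shRNA overlapped, and this call was lost without NS shRNA replicate 1 (adjusted p = 0.0798), NS shRNA replicate 2 (0.0696), shRNA #2 replicate 1 (0.0557) or shRNA #2 replicate 2 (0.0606). ENO1 fell with shRNA #1 (-0.54, SE 0.044, adjusted p = 5.11e-06) and rose with shRNA #2 (0.42, SE 0.048, adjusted p = 2.14e-05).

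The direct test of the hairpins placed 11 of the 17 enzymes higher with shRNA #2 than with shRNA #1 and none of them lower. Over all tested genes 31.4% were higher and 32.5% lower. HK1, GPI, PFKL, PFKM, GAPDH and LDHB did not pass. ENO1 differed most, by a log2 ratio of 0.95 (SE 0.038, adjusted p = 4.56e-09), followed by LDHA at 0.92, PKM at 0.75 and PGK1 at 0.68. The log2 ratio of PGAM1 (0.34, adjusted p = 0.0189) no longer passed without shRNA #1 replicate 1 (adjusted p = 0.0703), shRNA #1 replicate 2 (0.0531) or shRNA #2 replicate 3 (0.0692). Reads can be shared between a gene and its pseudogenes: the GENCODE annotation names pseudogenes after 17 of the 45 genes and 10 of the 17 enzymes, with 65 for GAPDH, 44 for BNIP3 and 13 for PGAM1, so the values of these genes carry that uncertainty.

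The make-up of each isozyme family was read among its members on the gene list only. It is the share of each in their reads per kilobase of exon within a library, a measure that does not depend on the scaling between libraries. HK2 made up 15.6% ± 0.183 (SD, n = 3) of HK1 and HK2 with NS shRNA, 24.1% ± 0.448 with shRNA #1 and 29.8% ± 0.548 with shRNA #2. The hexokinase HKDC1, described below, was not counted. Its mean normalized count went from 973 with NS shRNA to 10530 with shRNA #1, where HK1 stood at 10001. In the table of shRNA #2 it went from 1051 to 1127. Shares that include HKDC1 were not calculated, so the higher HK2 share holds only beside HK1. PFKL moved from 24.7% ± 0.0893 of the phosphofructokinases to 20.6% ± 0.492 and 16.8% ± 0.476. PFKP rose from 61.9% ± 0.380 to 67.9% ± 0.685 with shRNA #2, and with shRNA #1 it stood at 61.6% ± 0.439, within the spread of NS shRNA. LDHB went opposite ways, from 36.4% ± 2.34 of the lactate dehydrogenases to 44.3% ± 2.44 with shRNA #1 and 31.7% ± 2.18 with shRNA #2. Of the enolases, ENO2 made up 5.46% ± 0.123, 4.04% ± 0.0478 and 2.66% ± 0.0362, and of the aldolases ALDOC 1.63% ± 0.0859, 0.998% ± 0.0982 and 1.09% ± 0.0482. In the exact two-sided permutation test 27 of the 30 p-values over 7 families were 0.1, the smallest that 3 libraries against 3 allow, so no share could pass a threshold of 0.05, and shares within a family of a pair mirror each other. With the longest transcript in place of all exons, HK2 made up 10.2%, 16.2% and 20.6% of its pair with NS shRNA, shRNA #1 and shRNA #2, and PFKP with shRNA #1 also reached an exact permutation p of 0.1.

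**Figure D3:**
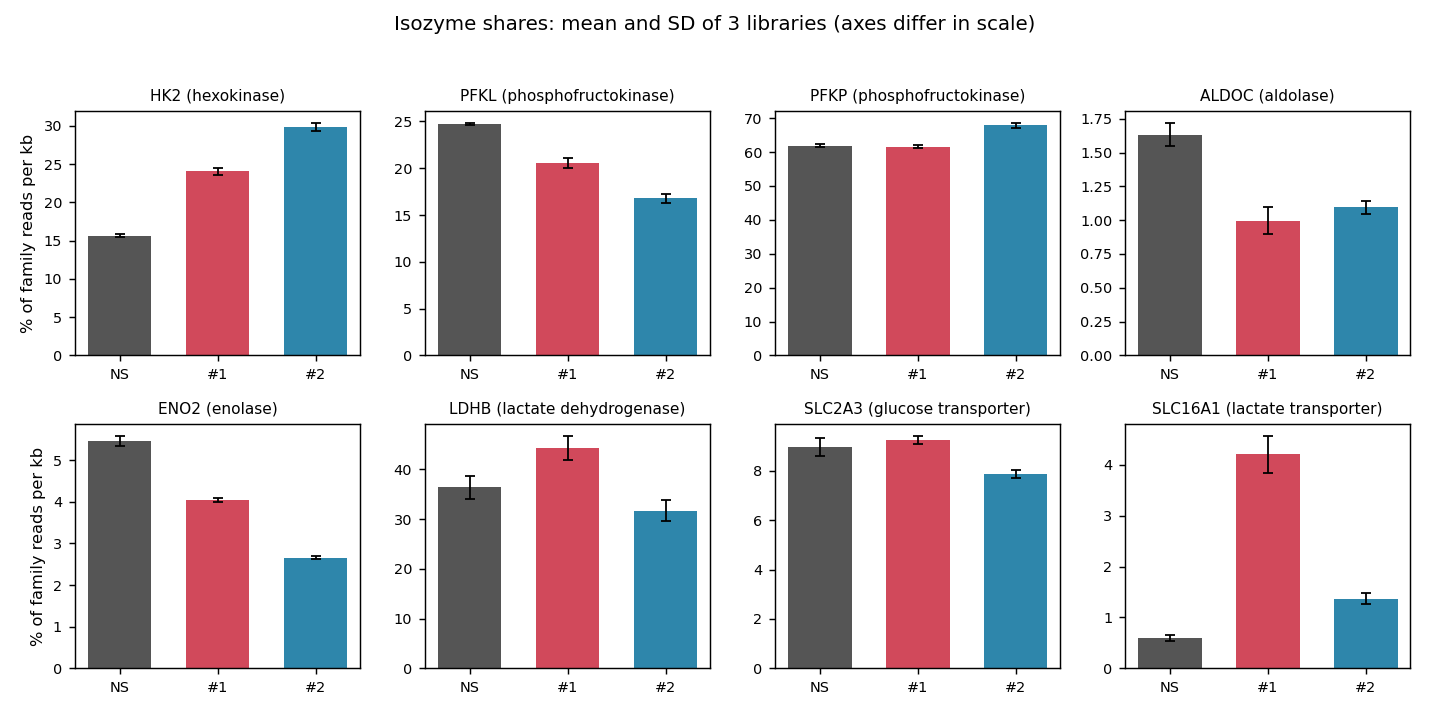
Bars show the share of a named isozyme in the reads per kilobase of its family's members on the gene list (percent, mean and SD of 3 libraries) with NS shRNA, shRNA #1 and shRNA #2, each panel on its own scale from 0. HK2 stands at 15.6%, 24.1% and 29.8% of HK1 and HK2 alone, without HKDC1, and LDHB at 36.4%, 44.3% and 31.7% of LDHA and LDHB.

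Among the 4 transporters, shRNA #1 left 1 higher and 1 lower, and shRNA #2 left 3 higher and 1 lower. Over all tested genes 32.8% were higher and 33.3% lower with shRNA #1, and 33.5% and 33.4% with shRNA #2. SLC2A1 (GLUT1, the main glucose importer) had 15380.5, 15827 and 15737 with NS shRNA and 14572, 14982 and 14961 with shRNA #1. In the other table it had 16596, 17180.1 and 16968 with NS shRNA and 28154, 27635 and 27404 with shRNA #2. SLC2A1 lay slightly below NS shRNA in each shRNA #1 library without passing (-0.077, SE 0.040, adjusted p = 0.117) and well above it with shRNA #2 (0.71, SE 0.046, adjusted p = 4.45e-07), and the hairpins differed by a log2 ratio of 0.78 (SE 0.035, adjusted p = 1.32e-08). SLC2A3 (GLUT3), a transporter of high affinity, gave -0.028 (adjusted p = 0.656) and 0.51. SLC16A1 (MCT1, chromosome 1 from 112911847 to 112957593 in hg38), a lactate and pyruvate carrier, was the lowest of the 45 genes in NS shRNA cells and had 75.4, 69.7 and 62.8 with NS shRNA and 294, 312 and 255 with shRNA #1. With shRNA #2 it had 81.3, 75.6 and 67.7 with NS shRNA and 137, 135 and 119 with shRNA #2. Every library of both hairpins lay above NS shRNA, 4.14-fold and 1.74-fold on average (2.03, SE 0.12, adjusted p = 7.98e-07 with shRNA #1 and 0.79, SE 0.14, adjusted p = 0.000547 with shRNA #2). SLC16A3 (MCT4), the lactate exporter of glycolytic cells, was lower with both, at 56.2% and 74.9% of NS shRNA. Even so, SLC16A1 made up only 0.593% ± 0.0574 of the carrier pair per kilobase with NS shRNA, 4.21% ± 0.362 with shRNA #1 and 1.37% ± 0.109 with shRNA #2.

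The regulators of flux held genes with large changes in both directions. With shRNA #1, 6 of the 9 were lower and 2 higher, and with shRNA #2, 5 were lower and 4 higher. That is 66.7% lower and 22.2% higher with shRNA #1, beside 33.3% and 32.8% of all tested genes. With shRNA #2 it is 55.6% and 44.4%, beside 33.4% and 33.5%. TXNIP (chromosome 1 from 145992435 to 145996579 in hg38) had 6351, 6510.5 and 6431 with NS shRNA and 19605, 19526 and 19902 with shRNA #1. Beside shRNA #2 it had 6853, 7067 and 6933 with NS shRNA and 23636, 23088 and 23750.1 with shRNA #2. Both hairpins stood far above NS shRNA, 3.06-fold and 3.38-fold, with log2 fold changes of 1.61 (SE 0.039, adjusted p = 5.25e-09) and 1.76 (SE 0.047, adjusted p = 2.51e-09). Its relative ARRDC4 (chromosome 15 from 97960703 to 97973833 in hg38) had 108, 154 and 120.0 with NS shRNA and 415, 435 and 419.9 with shRNA #1. With shRNA #2 the values were 116, 167 and 129 with NS shRNA and 1069.6, 950.4 and 989 with shRNA #2. ARRDC4 rose 3.32-fold with shRNA #1 and 7.29-fold with shRNA #2 (1.74, SE 0.13, adjusted p = 2.72e-06 with shRNA #1 and 2.87, SE 0.13, adjusted p = 4.37e-08 with shRNA #2), without overlap, and the hairpins differed by a log2 ratio of 1.12 (SE 0.094, adjusted p = 1.31e-06). For TXNIP that ratio was only 0.13 (adjusted p = 0.00689) and did not pass with upper quartile normalization (0.055, adjusted p = 0.194). The windows before both start sites are shown because both genes rose with both hairpins, with capitals as above (RefSeq, GRCh38.p14, chr1:145996580-145996829, minus strand, and chr15:97960453-97960702, plus strand).
TXNIP: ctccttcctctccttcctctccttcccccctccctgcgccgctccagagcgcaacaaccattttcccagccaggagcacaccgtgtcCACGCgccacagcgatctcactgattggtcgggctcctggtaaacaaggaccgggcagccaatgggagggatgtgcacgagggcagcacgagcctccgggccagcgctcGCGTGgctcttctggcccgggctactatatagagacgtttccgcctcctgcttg
ARRDC4: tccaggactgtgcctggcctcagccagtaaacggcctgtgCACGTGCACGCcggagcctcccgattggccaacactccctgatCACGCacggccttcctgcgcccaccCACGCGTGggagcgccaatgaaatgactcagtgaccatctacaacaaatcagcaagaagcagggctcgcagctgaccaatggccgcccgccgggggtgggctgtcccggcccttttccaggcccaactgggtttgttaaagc
The TXNIP window holds 2 GCGTG cores and no exact CACGTG, and the ARRDC4 window 2 ACGTG cores in 1 E-box and 4 GCGTG cores. Only exact matches to these letters were searched, so sites of MondoA and MLX that depart from CACGTG are not marked.

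The PFKFB enzymes set the level of the sugar bisphosphate that activates phosphofructokinase. PFKFB4 (chromosome 3 from 48517684 to 48562015 in hg38) had 1842, 1896 and 1921 with NS shRNA and 582, 537 and 558 with shRNA #1. In the table of shRNA #2 it had 1988, 2058 and 2072 with NS shRNA and 1386, 1354 and 1488 with shRNA #2. PFKFB4 fell without overlap to 29.6% with shRNA #1 and to 69.1% with shRNA #2 (-1.75, SE 0.058, adjusted p = 2.20e-08 with shRNA #1 and -0.53, SE 0.062, adjusted p = 2.64e-05 with shRNA #2). PFKFB3, the form with the strongest kinase activity, had 4879, 5146 and 4996 with NS shRNA and 3517, 3635 and 3711 with shRNA #1. Against shRNA #2 it had 5265, 5586 and 5386 with NS shRNA and 6799, 6252 and 6820.4 with shRNA #2. Its libraries lay below NS shRNA with shRNA #1 and above it with shRNA #2, and both differences passed (-0.47, SE 0.046, adjusted p = 1.71e-05 with shRNA #1 and 0.29, SE 0.056, adjusted p = 0.000949 with shRNA #2). PFKFB2, the heart form, was lower with both (-0.45 and -0.41).

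The PDK kinases switch off pyruvate dehydrogenase, and each of the 4 gave its own pattern. PDK1, the HIF-responsive form, had 1852, 1978 and 2092 with NS shRNA and 1213, 1249.8 and 1178 with shRNA #1. In the other table its values were 1999, 2148 and 2256 with NS shRNA and 2793, 2802 and 2758 with shRNA #2. Like PFKFB3, PDK1 was below NS shRNA in every shRNA #1 library and above it in every shRNA #2 library (-0.70, SE 0.061, adjusted p = 7.16e-06 with shRNA #1 and 0.39, SE 0.061, adjusted p = 0.000252 with shRNA #2). PDK3 (chromosome X from 24465244 to 24550466 in hg38) had 974, 922 and 917 with NS shRNA and 401, 381 and 341 with shRNA #1. With shRNA #2 it had 1051, 1001 and 988 with NS shRNA and 783, 801 and 711 with shRNA #2. It fell to 39.9% and 75.5% of NS shRNA (-1.33, SE 0.077, adjusted p = 6.40e-07 with shRNA #1 and -0.41, SE 0.073, adjusted p = 0.000582 with shRNA #2), without overlap. PDK2 went the other way in size, with -0.40 for shRNA #1 and -0.90 for shRNA #2, and PDK4, which is induced by fasting in many tissues, passed only with shRNA #2 (-0.14, adjusted p = 0.243, and -0.55, adjusted p = 0.00319). Directly compared, shRNA #2 stood above shRNA #1 for PFKFB4 (log2 ratio 1.21), PDK1 (1.07), PDK3 (0.91) and PFKFB3 (0.75), and below it for PDK2 (-0.52) and PDK4 (-0.43). The regulators together took 0.0589% to 0.0612% of reads on genes with NS shRNA, 0.0882% to 0.0889% with shRNA #1 and 0.0985% to 0.101% with shRNA #2. TXNIP carried that rise: without it, the other 8 took 0.0393% to 0.0412%, 0.0266% to 0.0271% and 0.0378% to 0.0393%.

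**Figure D4:**
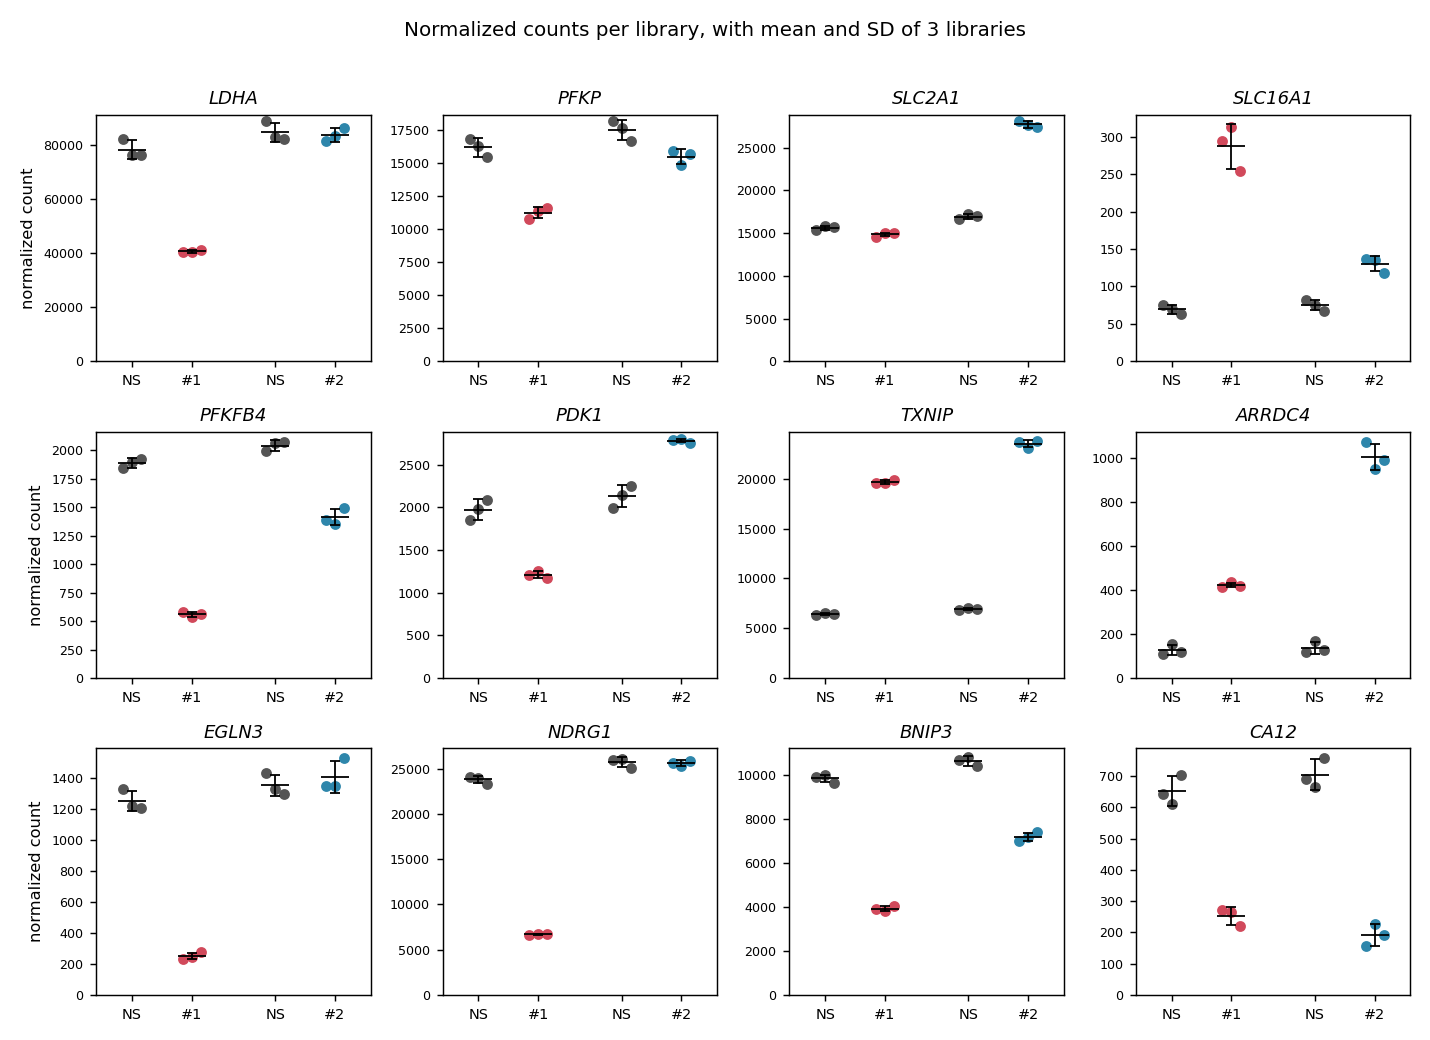
Normalized counts of 12 genes are plotted for every library (points) with the mean and SD of 3 libraries (bars), NS shRNA in gray, beside shRNA #1 in red or shRNA #2 in blue, each pair from its own table, on axes from 0. TXNIP and ARRDC4 lie above NS shRNA with both hairpins, PDK1 lies below it with shRNA #1 and above it with shRNA #2, and NDRG1 and EGLN3 are far below it with shRNA #1 and overlap it with shRNA #2.

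Of the mRNAs of HIF itself, HIF1A, the oxygen-labile subunit, had 18923, 20398 and 22970 with NS shRNA and 18283, 17887 and 16159 with shRNA #1. In the table of shRNA #2 it had 20419, 22142 and 24766 with NS shRNA and 22251, 23992 and 21186 with shRNA #2. The shRNA #1 libraries lay just below NS shRNA and the shRNA #2 libraries overlapped it (-0.25, SE 0.075, adjusted p = 0.0145 with shRNA #1 and 0.0048, SE 0.075, adjusted p = 0.958 with shRNA #2). The HIF1A call with shRNA #1 was lost by limma without the trend (adjusted p = 0.0541). EPAS1 (HIF2 alpha) gave -0.14 (adjusted p = 0.153) and -0.41 (adjusted p = 0.00190), and ARNT, the stable partner, -0.29 (adjusted p = 0.0113) and -0.12 (adjusted p = 0.156). These are mRNA levels, and the oxygen control of HIF acts on the alpha protein, which was not measured in these libraries.

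The prolyl hydroxylases EGLN1 and EGLN3 are also HIF targets, and EGLN3 (chromosome 14 from 33924227 to 34462774 in hg38) gave the largest fall of all 45 genes. It had 1324, 1219.9 and 1203 with NS shRNA and 234, 241 and 275 with shRNA #1. With shRNA #2 it had 1429, 1324 and 1297 with NS shRNA and 1345, 1347 and 1524 with shRNA #2. The shRNA #1 libraries stood at 20.0% of NS shRNA (-2.32, SE 0.082, adjusted p = 3.09e-08), whereas those of shRNA #2 overlapped NS shRNA (0.057, SE 0.074, adjusted p = 0.515). EGLN1, the main oxygen sensor of the family, was lower with both but far less so with shRNA #2 (-0.96 and -0.20, adjusted p = 0.00653). The hairpins differed by a log2 ratio of 2.36 (SE 0.083, adjusted p = 1.93e-09) for EGLN3 and 0.75 (SE 0.047, adjusted p = 1.39e-07) for EGLN1. HIF1A was slightly higher with shRNA #2 than with shRNA #1 (0.24, adjusted p = 0.0125), a call lost with upper quartile normalization (0.17, adjusted p = 0.0609), and EPAS1 lower (-0.28, adjusted p = 0.0143). The EPAS1 difference was lost without shRNA #1 replicate 1 (adjusted p = 0.0505) or shRNA #2 replicate 3 (0.0595). ARNT did not pass between the hairpins (0.15, adjusted p = 0.112), except without shRNA #1 replicate 2 (0.22, adjusted p = 0.0389).

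The HIF targets outside glycolysis fell with shRNA #1 as well. With shRNA #1, 9 of the 10 were called lower, P4HA2 did not pass and none was higher, with a median log2 fold change of -1.03 and 6 genes down by 2-fold or more. Over all tested genes 33.3% were called lower and 32.8% higher, and 5.33% fell by 2-fold or more. With shRNA #2, 5 were lower and P4HA2 higher, CA9, BNIP3L, NDRG1 and LOX did not pass, and the median was -0.34. These are 50% lower and 10% higher, beside 33.4% and 33.5% of all tested genes. They took 0.171% to 0.175% of the reads on genes with NS shRNA, 0.0806% to 0.0830% with shRNA #1 and 0.144% to 0.146% with shRNA #2, again without overlap. NDRG1 was a large part of these sums, and without it the shares were 0.0984% to 0.101%, 0.0599% to 0.0618% and 0.0774% to 0.0789%.

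NDRG1 (chromosome 8 from 133237175 to 133302022 in hg38), a stress-induced cytoplasmic protein and a frequent marker of hypoxia, had 24103, 24021 and 23308 with NS shRNA and 6596, 6699.9 and 6752 with shRNA #1. In the table of shRNA #2 it had 26008, 26075 and 25130.5 with NS shRNA and 25682, 25265 and 25870 with shRNA #2. NDRG1 stood at 28.1% of NS shRNA with shRNA #1 and overlapped NS shRNA with shRNA #2 (-1.83, SE 0.040, adjusted p = 3.80e-09 with shRNA #1 and -0.0073, SE 0.046, adjusted p = 0.898 with shRNA #2). BNIP3 (chromosome 10 from 131967684 to 131981967 in hg38), a mitochondrial receptor for mitophagy, had 9901, 9985 and 9652 with NS shRNA and 3900.5, 3827 and 4055 with shRNA #1. Beside shRNA #2 the values were 10683, 10838 and 10407 with NS shRNA and 7003, 7182 and 7387 with shRNA #2. BNIP3 was lower with both, at 39.9% and 67.6% of NS shRNA (-1.33, SE 0.044, adjusted p = 2.29e-08 with shRNA #1 and -0.57, SE 0.049, adjusted p = 3.41e-06 with shRNA #2), and its homolog BNIP3L gave -0.74 and 0.081 (adjusted p = 0.188). ANKRD37 (chromosome 4 from 185396021 to 185400628 in hg38), a small ankyrin repeat protein, had 368, 329.7 and 284 with NS shRNA and 112, 110.0 and 142 with shRNA #1. With shRNA #2 it had 398, 358 and 307 with NS shRNA and 159.6, 151 and 205 with shRNA #2. Its groups did not overlap in either table (-1.42, SE 0.14, adjusted p = 1.30e-05 with shRNA #1 and -1.04, SE 0.14, adjusted p = 7.66e-05 with shRNA #2).

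P4HA1 (chromosome 10 from 73007217 to 73096974 in hg38), a catalytic subunit of collagen prolyl 4-hydroxylase, had 5125, 5489 and 5263 with NS shRNA and 2534, 2684 and 2642 with shRNA #1. With shRNA #2 the values were 5530.2, 5958 and 5674 with NS shRNA and 4672, 4573 and 4744 with shRNA #2. P4HA1 was lower in all libraries of both hairpins (-1.01, SE 0.049, adjusted p = 2.00e-07 with shRNA #1 and -0.29, SE 0.053, adjusted p = 0.000580 with shRNA #2). The other catalytic subunit, P4HA2, gave 0.035 with shRNA #1 (adjusted p = 0.631) and 0.19 with shRNA #2 (adjusted p = 0.0177), the latter lost without NS shRNA replicate 3 (adjusted p = 0.0628), shRNA #2 replicate 1 (0.0669) or shRNA #2 replicate 3 (0.0555). LOX, which crosslinks collagen outside the cell, gave -0.36 and -0.14 (adjusted p = 0.128), and passed as lower with shRNA #2 without shRNA #2 replicate 2 (-0.20, adjusted p = 0.0331). ADM, the vasodilator adrenomedullin, was called lower with both (-0.30, adjusted p = 0.0174, and -0.50, adjusted p = 0.000628). Its groups overlapped with shRNA #1, where the call was lost without NS shRNA replicate 1 (adjusted p = 0.0707), NS shRNA replicate 2 (0.0599), shRNA #1 replicate 1 (0.0589) or shRNA #1 replicate 2 (0.0704).

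The membrane carbonic anhydrases, which handle the acid that glycolysis produces, differed from each other. CA9 (chromosome 9 from 35673928 to 35681159 in hg38) had 238, 275 and 211 with NS shRNA and 107, 117 and 123 with shRNA #1. In the other table it had 256, 298 and 227 with NS shRNA and 184, 164 and 252 with shRNA #2. CA9 fell with shRNA #1 (-1.05, SE 0.12, adjusted p = 5.41e-05) and overlapped NS shRNA with shRNA #2 (-0.39, SE 0.16, adjusted p = 0.0540). It passed as lower with shRNA #2 without NS shRNA replicate 3 (-0.49, adjusted p = 0.0222) or without shRNA #2 replicate 3 (-0.57, adjusted p = 0.00379). A single limma fit of the 9 libraries also called CA9 lower with shRNA #2 (-0.39, adjusted p = 0.0419). CA12 (chromosome 15 from 63321378 to 63381846 in hg38) had 642, 611 and 704 with NS shRNA and 270.1, 267 and 220.0 with shRNA #1. Next to shRNA #2 it had 692, 664 and 759 with NS shRNA and 155, 226 and 190.0 with shRNA #2. CA12 fell with both hairpins, to 38.7% of NS shRNA with shRNA #1 and to 27.0% with shRNA #2 (-1.37, SE 0.10, adjusted p = 2.45e-06 with shRNA #1 and -1.90, SE 0.13, adjusted p = 6.91e-07 with shRNA #2), and the hairpins differed by -0.52 (SE 0.13, adjusted p = 0.00473). Its upstream window is shown as that of the largest change among these 10 targets (RefSeq, GRCh38.p14, chr15:63381847-63382096, minus strand).
CA12: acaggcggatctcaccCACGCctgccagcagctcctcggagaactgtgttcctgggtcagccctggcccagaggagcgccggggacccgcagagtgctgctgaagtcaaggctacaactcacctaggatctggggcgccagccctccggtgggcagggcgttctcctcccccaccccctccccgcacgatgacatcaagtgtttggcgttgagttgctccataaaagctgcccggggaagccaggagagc
It holds 1 GCGTG core, 234 bases before the start, and neither ACGTG nor an E-box.

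Against each other, the hairpins differed for 7 of these 10 targets, near the 63.9% of all tested genes that differed. Of the 10, 6 were higher with shRNA #2 and CA12 lower, beside 31.4% and 32.5% of all tested genes. The median log2 ratio was 0.52. NDRG1 differed most (1.81, SE 0.037, adjusted p = 2.92e-11), followed by BNIP3L (0.80), BNIP3 (0.75), P4HA1 (0.71) and CA9 (0.67). The log2 ratio of LOX (0.22, adjusted p = 0.0226) no longer passed without shRNA #1 replicate 3 (adjusted p = 0.0859) or shRNA #2 replicate 2 (0.0900). ANKRD37, ADM and P4HA2 did not pass (adjusted p = 0.0575, 0.0752 and 0.0588). ANKRD37 and P4HA2 passed as higher without shRNA #1 replicate 3 (0.51 and 0.19) or shRNA #2 replicate 2 (0.47 and 0.18), and ADM as lower without shRNA #2 replicate 3 (-0.29). ANKRD37 also passed as higher with DESeq2 (adjusted p = 0.0421), limma (0.042) and edgeR without a filter (0.0334). So did P4HA2 with DESeq2 (0.0405), limma (0.0358), edgeR without a filter (0.0441) and DESeq2 size factors in edgeR (0.0469). Of all 45 genes, PFKFB4, PDK1, ARRDC4, EGLN3 and NDRG1 were at least 2-fold higher with shRNA #2, a size reached by 3.98% of all tested genes, and SLC16A1 was at least 2-fold lower, as were 8.44% of all tested genes. The knockdown itself also differed, with ASAH1 lower with shRNA #2 by a log2 ratio of -0.89, so a difference between the hairpins cannot be told apart from a difference in the depth of knockdown.

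**Figure D5:**
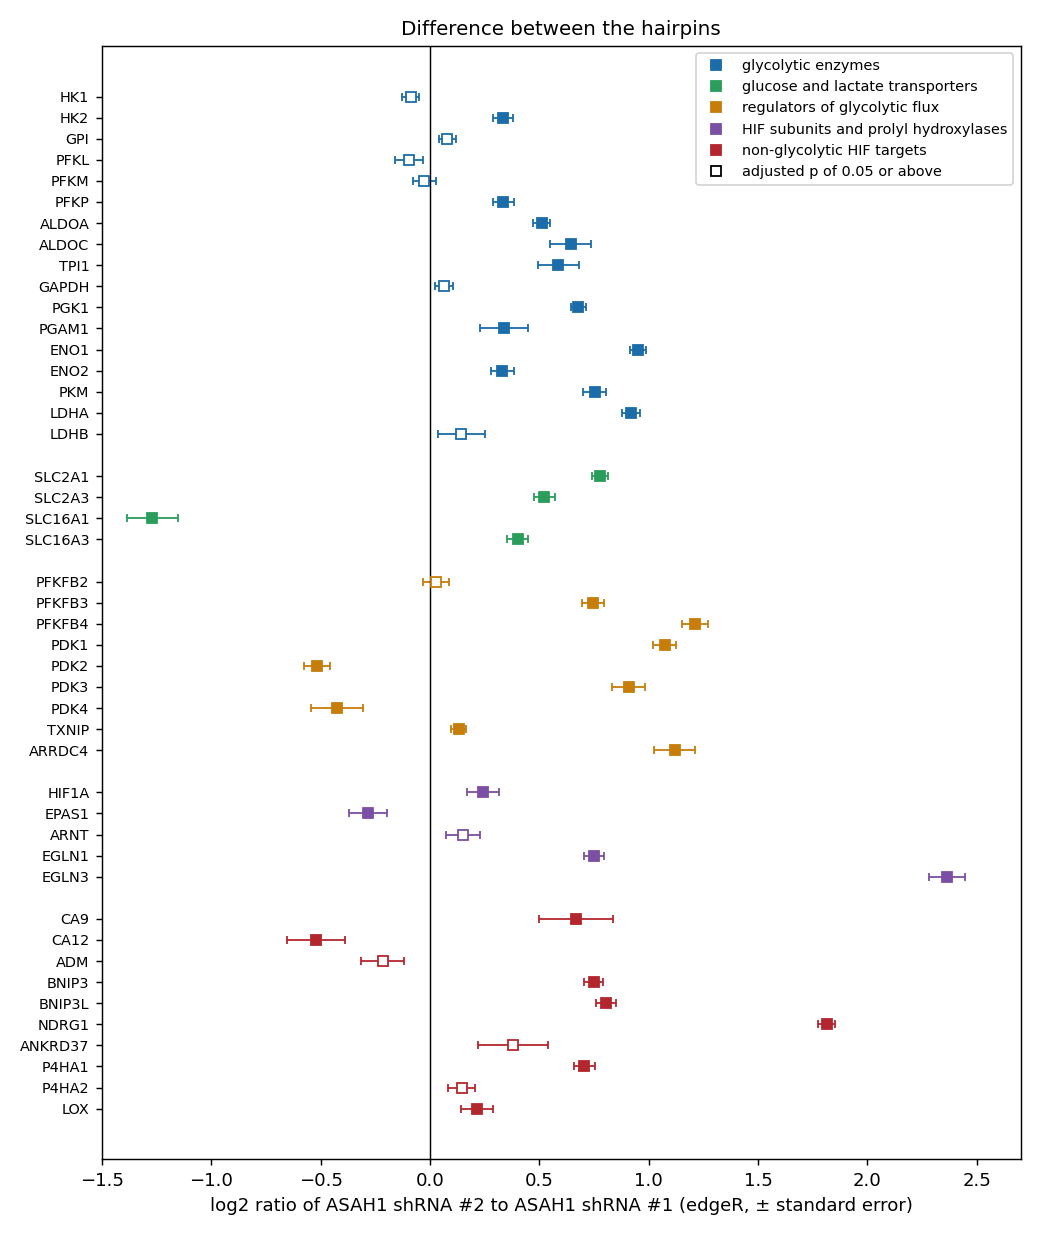
Each square is the log2 ratio of shRNA #2 to shRNA #1 from edgeR on the reads of 3 libraries per group, with its standard error, for the 45 genes by role (open squares, adjusted p of 0.05 or above). Most squares lie right of 0, EGLN3 is farthest right at 2.36 and SLC16A1 farthest left at -1.27.

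Upstream windows of 250 bases were found in RefSeq for 40 of the 45 genes, and SLC2A3, SLC16A1, PFKFB2, BNIP3L and NDRG1 had no entry. At least 1 HIF core (ACGTG or GCGTG on either strand) was present in 25 of the 40 (62.5%), beside 43.1% of all 27305 windows of that length. ACGTG was held by 40% of the 40 and 18.7% of all windows, GCGTG by 37.5% and 31.9%, and the E-box CACGTG, which overlaps ACGTG, by 15% and 6.49%. By role, a core stood before 10 of 17 enzymes, 5 of 8 regulators, 3 of 5 HIF subunits and hydroxylases, 7 of 8 non-glycolytic targets and 0 of 2 transporters. EGLN3, PDK1 and SLC2A1 had none in this window, LDHA had 5 and BNIP3 had 6. A match describes letters in this window and not a bound site.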

How the data were processed

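Strand-specific mRNA libraries were trimmed by the authors with Trimmomatic 0.36, aligned to hg38 with STAR 2.7.1a and counted on UCSC genes with htseq-count (reverse strand). A further methods paragraph of the study names Bowtie2 with RSEM, and TMM with edgeR. The deposited values are a normalized signal per gene and library, a read count divided by a DESeq2 1.28 size factor, with 1 table per ASAH1 hairpin. The tables also hold the authors' fold changes and p-values, which were not used. Every value was a whole read number over its library's factor (tolerance 0.1 reads), so reads were recovered, and the NS shRNA reads showed 0 differences between tables. 28 symbols turned into dates were restored from the other table.

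Each hairpin was compared with NS shRNA in its own table by limma 3.58.1 (R 4.3.3), two-sided, on log2(value + 1) with an intensity trend, for genes whose mean reached 10, and Benjamini-Hochberg adjusted p-values were read at 0.05. The pseudocount understates the fold changes of low genes. The hairpins were compared by edgeR 4.0.16 with TMM normalization of the reads of the 9 libraries. Fits were tested on simulated data. Alternatives were pseudocounts of 0.1 and 5, no filter, a mean filter of 50, no intensity trend, upper quartile scaling, edgeR and DESeq2 1.42.0 on reads, a single fit of the 9 libraries, a replicate block, and each library left out in turn. Gene lengths and positions come from GENCODE v44 on hg38, and 250 upstream bases from RefSeq.

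The members and lists were chosen with earlier results of these data known. Values in every library are given for members with a log2 fold change of at least 1 either way and a call in either comparison, and for SLC2A1, HK2, PFKP, GAPDH, LDHA, PFKFB3, PDK1, TXNIP, HIF1A, CA9 and NDRG1. From other lists, up to 3 genes in each direction with the largest mean log2 fold change were named, among those called the same way in both comparisons with a mean of at least 100. Promoters are those of the members with the largest changes among enzymes, regulators and non-glycolytic HIF targets.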

Additional observations from a re-analysis of the deposited data

Results flagged for a closer look

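3 genes passed the test against NS shRNA in opposite directions with the 2 hairpins, and the difference between the hairpins was itself tested by edgeR on the reads. ENO1 was lower with shRNA #1 and higher with shRNA #2, with a log2 ratio of shRNA #2 to shRNA #1 of 0.952. PFKFB3 gave a ratio of 0.746 and PDK1 a ratio of 1.07. In all 3 genes each of the 3 libraries lay on the same side of NS shRNA within its hairpin. A difference between the hairpins cannot be told apart from the difference in remaining ASAH1.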

How the results depend on the processing

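Of the 45 genes, 41 kept both their sign and their call or lack of one under every alternative with shRNA #1. The same held for 30 with shRNA #2 and 31 between the hairpins. The counts of glycolytic enzymes called with shRNA #1 (15 lower, 1 higher) were the same under all alternatives run. Non-glycolytic HIF targets called higher with shRNA #2 went from 1 (P4HA2) to 0 with limma without the trend, upper quartile rescaling or the replicate block, and ran from 0 to 1 with a library left out. Between the hairpins, glycolytic enzymes called lower went from 0 to 1 with the stricter mean filter of 50 and to 2 with upper quartile normalization, and non-glycolytic HIF targets called lower from 1 to 2 with upper quartile normalization and from 1 to 2 over the left-out libraries (2 without shRNA #2 replicate 3).

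Signs reversed only for genes without a call: with shRNA #2, upper quartile rescaling gave log2 fold changes of -0.072 for PKM, -0.085 for HIF1A, -0.033 for EGLN3 and -0.0087 for BNIP3L, and DESeq2 gave -0.0022 for HIF1A. Between the hairpins, upper quartile normalization gave -0.011 for GAPDH and -0.048 for PFKFB2. The same scaling added calls with shRNA #2 of PFKM (-0.20), TPI1 (-0.22), ARNT (-0.21), CA9 (-0.48) and LOX (-0.23) as lower, and between the hairpins of HK1 (-0.16), PFKL (-0.17) and ADM (-0.29) as lower, while PGAM1 (0.26), TXNIP (0.055), HIF1A (0.17) and LOX (0.14) lost theirs there. That scaling moved the median of all genes to -0.077 with shRNA #2 and to -0.080 between the hairpins. With a library left out, SLC2A3 ran from -0.056 to 0.0037 and P4HA2 from -0.014 to 0.077 with shRNA #1. With shRNA #2, PKM ran from -0.015 to 0.056, LDHA from -0.038 to 0.019, HIF1A from -0.061 to 0.078, EGLN3 from -0.0032 to 0.098 and NDRG1 from -0.024 to 0.0023. Between the hairpins, PFKM ran from -0.057 to 0.017 and SLC2A12 from -0.28 to 0.043. The cause of these shifts was not tested.

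The replicate numbers did not pair the libraries: same-numbered libraries of NS shRNA and a hairpin correlated at -0.30 to -0.088 in their deviations from the group means, and those of the hairpins at 0.053 to 0.20. With the replicate block, all genes called fell to 8237 with shRNA #1, 8526 with shRNA #2 and 8590 between the hairpins, and among the members HIF1A (adjusted p = 0.0534) and ADM (0.060) lost their calls with shRNA #1 and PFKP (0.0692), EGLN1 (0.0511) and P4HA2 (0.0715) with shRNA #2. Depth limits the lowest genes, SLC16A1, ARRDC4 and PDK4.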

Other observations

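Of 41 other genes of glycolysis and pyruvate handling, 33 could be tested with shRNA #1 (8 higher, 16 lower, median log2 fold change -0.19) and 34 with shRNA #2 (7 higher, 15 lower, median -0.18). That is 24.2% higher and 48.5% lower with shRNA #1, beside 32.8% and 33.3% of all tested genes. With shRNA #2 it is 20.6% and 44.1%, beside 33.5% and 33.4%. TIGAR, which lowers the activator of phosphofructokinase (log2 fold changes 0.49 with shRNA #1 and 0.62 with shRNA #2), PDP2, which reactivates pyruvate dehydrogenase (0.36 and 0.62), and PDHX, a subunit of that complex (0.25 and 0.57), were higher with both. The transporters SLC2A12 (-1.60 and -1.70), SLC2A13 (-1.07 and -2.17) and SLC2A10 (-1.67 and -1.05) were lower with both.

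HKDC1 and SLC16A7 were singled out after their values had been seen. HKDC1, a further hexokinase, had normalized counts of 1009, 962 and 947 with NS shRNA and 9824, 10832 and 10934 with shRNA #1, which is 10.8-fold higher (log2 fold change 3.43). In the table of shRNA #2 it had 1089, 1044 and 1021 with NS shRNA and 1173, 1107 and 1101 with shRNA #2 (0.10, adjusted p = 0.196 from limma), and the hairpins differed by a log2 ratio of -3.35 from edgeR. SLC16A7 (MCT2), a lactate and pyruvate carrier, went from 219.8, 237 and 305 with NS shRNA to 463, 401 and 349 with shRNA #1, and from 237, 258 and 329 with NS shRNA to 20.5, 12.6 and 5.43 with shRNA #2 (log2 fold changes 0.67 and -4.47, log2 ratio between the hairpins -5.16). Both genes thus separated the hairpins more than any of the 45 genes did. Neither gene was counted in the hexokinase and carrier shares given above.

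Of 9 other genes of the HIF machinery 7 could be tested: 2 were higher and 4 lower with shRNA #1, and 2 higher and 2 lower with shRNA #2. With shRNA #1 these are 28.6% and 57.1% of the 7, and with shRNA #2 28.6% each way, beside the shares of all tested genes given above. ELOC (0.18 and 0.49) and CUL2 (0.15 and 0.31), parts of the VHL ubiquitin ligase, were called higher with both, and RBX1, of the same ligase (-0.45 and -0.24), and HIF1AN, the asparagine hydroxylase of HIF (-0.17 and -0.51), lower with both. With shRNA #1 the calls of ELOC, CUL2 and HIF1AN were lost with the replicate block (adjusted p = 0.0939, 0.138 and 0.0791 from limma), and with shRNA #2 that of RBX1 (0.0912). The RBX1 call with shRNA #2 was also lost with a pseudocount of 0.1 (0.0509), no filter (0.0539) or a mean filter of 50 (0.051). Limma without the trend ended the calls of RBX1 with shRNA #2 (0.117) and of ELOC (0.0537) and CUL2 (0.0788) with shRNA #1. Leaving out 1 library also ended these calls: that of ELOC without NS shRNA replicate 3 (0.0645), shRNA #1 replicate 2 (0.0592) or 3 (0.0817), that of CUL2 without NS shRNA replicate 1 (0.125) or 2 (0.108), shRNA #1 replicate 1 (0.139) or 2 (0.133), and that of HIF1AN without NS shRNA replicate 1 (0.0621), shRNA #1 replicate 1 (0.0588) or 2 (0.0517). The RBX1 call was lost without NS shRNA replicate 1 (0.191) or 2 (0.139), shRNA #2 replicate 1 (0.123) or 2 (0.150).

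Of 31 other HIF targets, 20 were lower and 8 higher with shRNA #1 (median -0.45), and 10 lower and 11 higher with shRNA #2 (median -0.045). With shRNA #1 that is 64.5% lower and 25.8% higher, beside 33.3% and 32.8% of all tested genes. With shRNA #2 it is 32.3% lower and 35.5% higher, near the 33.4% and 33.5% of all tested genes. MIR210HG, the host transcript of the hypoxia microRNA miR-210, fell from 938, 825 and 749.7 to 100.3, 85.9 and 97.05 with shRNA #1 (-3.13) and fell less with shRNA #2 (-0.88). PPFIA4 gave -3.06 and -0.84 and ERO1A, an oxidase of the endoplasmic reticulum, -0.65 and -0.30. VEGFA, the main angiogenic HIF target, rose 2.60-fold and 5.15-fold (1.38 and 2.37). ADORA2B, an adenosine receptor (1.73 and 1.62), and VLDLR, a lipoprotein receptor (0.45 and 1.64), also rose.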
